A study of Mus musculus with 30 samples.

Results

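The 10 genes described here make nitric oxide, supply its substrate arginine or draw arginine away from it. They were chosen by name (Nos2, Nos3, Gch1, Slc7a1, Slc7a2, Ass1, Asl, Arg1, Arg2 and Odc1), and all 10 were found, each as 1 entry, among 19470 entries of the lung table and 18845 of the spleen table (19841 distinct symbols in all). Nitric oxide synthases split arginine into nitric oxide and citrulline, and need the cofactor tetrahydrobiopterin. Arginases compete for the same arginine and turn it into ornithine, from which polyamines and proline are made. In mouse macrophages, bacterial products and interferon gamma are the textbook inducers of the inducible synthase, whereas arginase 1 is best known from liver, where it closes the urea cycle, and from macrophages exposed to interleukin 4.

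Lungs and spleens came from C57BL/6 mice, 8 weeks old, of 3 genotypes: a line labelled lincRNA-Cox2 mutant, a line labelled lincRNA-Cox2 knockout, and wild type. LincRNA-Cox2 is a long noncoding RNA made next to Ptgs2, the gene of cyclooxygenase 2. The treated mice had received intraperitoneal lipopolysaccharide (LPS, a bacterial cell wall component recognised by Toll-like receptor 4), 20 mg per kg body weight, 6 h before the organs were removed; controls are labelled PBS, with no dose or time in the labels. Each of the 2 tissues had 15 libraries, with 3 per genotype under LPS and 2 per genotype under PBS, and the labels say neither how each allele was made nor which animal a library came from.

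Levels are means over the libraries of a group, computed by the authors from normalized counts (reads scaled for library size), so the spread between replicates cannot be shown and overlap between groups cannot be judged. Genotypes are compared by what the authors' deposited table lists for each pair (a log2 fold and an adjusted p), and LPS with PBS by dividing group means after adding 1 to each, without a test. Estimated library totals were 5.2 to 17.3 M reads in lung and 0.940 to 8.95 M in spleen; the lowest belongs to the LPS-treated mutant spleens. The targeted RNA was at 0 in mutant and 0 in knockout lung, against 30.2 in wild type lung, with LPS. In spleen with LPS it was at 0 in mutant and 0.322 in knockout, against only 3.53 in wild type mice, and the authors' deposited table does not call that loss (adjusted p = 1 for mutant and 0.630 for knockout over wild type). Ptgs2 was at 1058 in mutant, 208 in knockout and 1397 in wild type lung with LPS. The authors' deposited table calls it lower in knockout over wild type lung, at -2.70 with LPS (log2; adjusted p = 3.64e-31) and -2.88 with PBS (log2; adjusted p = 1.66e-17), so the knockout differs from wild type in Ptgs2 as well. Sex-linked genes moved with treatment: in lung the authors' mean of Xist, made from the inactive X chromosome of females, was 4510 in mutant, 23.2 in knockout and 14.5 in wild type mice with LPS, against 3300 in mutant, 1910 in knockout and 3660 in wild type mice with PBS. Ddx3y, a gene of the Y chromosome, was at 4.73 in mutant, 1130 in knockout and 1150 in wild type lung with LPS, and at 317 in mutant, 447 in knockout and 294 in wild type lung with PBS. Sex-linked expression thus differed between LPS and PBS in every genotype, and between mutant and the other genotypes under LPS. The effect of treatment, and under LPS that of the mutant genotype, cannot be told apart from the sex of the animals. Spleens also differed in pancreatic acinar markers, whose 6 genes summed to 21182 in mutant, 9400 in knockout and 13790 in wild type mice with LPS, and to 17879 in mutant, 2906 in knockout and 1014 in wild type mice with PBS; their part in the spleen results was not tested.

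Regulatory sequence is shown for the pair of members with higher levels under LPS in every group whose transcription start is the same in RefSeq and GENCODE. Windows were at hand for 4 of the 10 genes (Gch1, Slc7a1, Ass1 and Odc1). The lines give the 250 bases before the RefSeq start (build GRCm38.p6, minus strand, chr14:47189414-47189663 for Gch1 and chr5:148399905-148400154 for Slc7a1), 5′ to 3′, with motif matches in capitals.
Gch1: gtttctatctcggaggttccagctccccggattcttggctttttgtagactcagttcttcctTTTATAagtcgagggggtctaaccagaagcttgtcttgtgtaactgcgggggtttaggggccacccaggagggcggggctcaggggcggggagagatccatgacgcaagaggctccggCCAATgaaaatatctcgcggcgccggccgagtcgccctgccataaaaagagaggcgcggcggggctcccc
Slc7a1: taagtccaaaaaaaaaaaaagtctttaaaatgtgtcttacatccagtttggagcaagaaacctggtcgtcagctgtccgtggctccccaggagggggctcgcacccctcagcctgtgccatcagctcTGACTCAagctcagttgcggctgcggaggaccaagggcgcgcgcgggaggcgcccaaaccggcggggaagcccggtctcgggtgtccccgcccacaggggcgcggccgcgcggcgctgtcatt
Both strands were searched for GGG followed by any 2 bases and TTTCC (an NF-kB form), CACGTG (E-box), TGACGTCA (CRE), TGANTCA (AP-1), TATAAA and CCAAT, where N is any base. The capitals in Gch1 mark TATAAA on the opposite strand from base -188, a motif found in 12.4% of all 32851 windows of 250 bases, and CCAAT from base -70, found in 33.8%. In Slc7a1 they mark TGACTCA, an AP-1 form, from base -123, a motif found in 6.75% of windows. No capitals overlap, and the other motifs spelled out here have no match in these letters.

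Under LPS most of the arginine and nitric oxide genes stood higher in both tissues. In lung 8 of 10 were at least 2-fold higher with LPS than with PBS in mutant mice, 8 of 10 in knockout mice and 8 of 10 in wild type mice, and none was 2-fold lower. Over all entries with a group mean of at least 10, 15.5% were 2-fold higher and 16% lower in mutant lung, 16.9% higher and 17.7% lower in knockout lung, and 13.9% higher and 14.3% lower in wild type lung. The members' median log2 ratio in lung was 2.44 in mutant, 2.30 in knockout and 2.02 in wild type mice, beside -0.03, -0.01 and -0.03 over all entries of mutant, knockout and wild type lung. In spleen 8 of 10 were 2-fold higher in mutant, 8 of 10 in knockout and 5 of 10 in wild type mice, and 1 member was 2-fold lower, in wild type. Over all spleen entries 15.3% were higher and 16.7% lower in mutant, 16.6% higher and 18.7% lower in knockout, and 13.5% higher and 14.8% lower in wild type mice. Here the median log2 ratio of the members was 1.43 in mutant, 1.86 in knockout and 1.08 in wild type mice, beside 0.00, -0.02 and 0.02 over all entries of mutant, knockout and wild type spleen. A lower level in bulk tissue may mean fewer cells of a type or less RNA per cell, and these cannot be told apart.

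**Figure D1:**
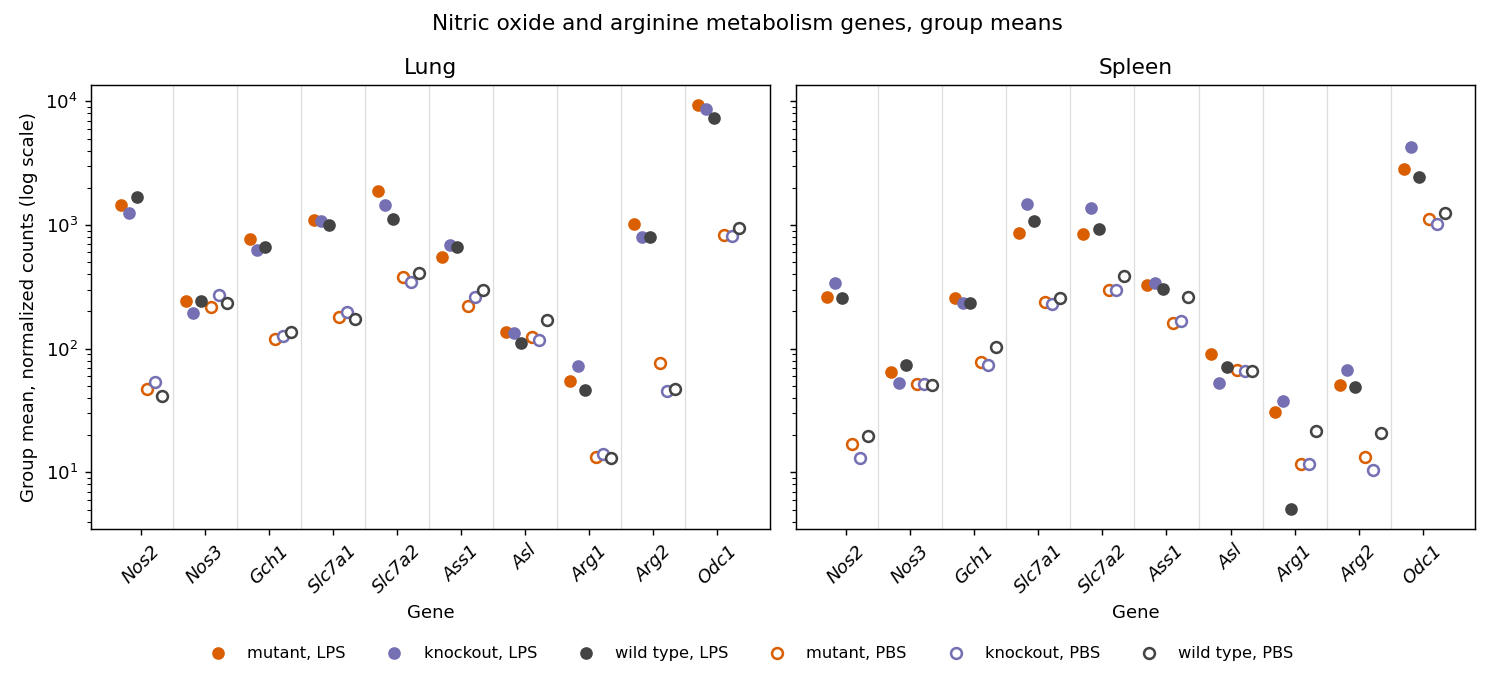
Authors' group means (normalized counts, log axis) of the 10 genes in lung and spleen, filled circles for LPS and open circles for PBS, by genotype. In lung the filled circles of Nos2 lie between 1250 and 1690 and the open ones between 41.3 and 53.7, whereas those of Nos3 and Asl lie close together.

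Nos2, the inducible nitric oxide synthase (chromosome 11, 78920787 to 78960254, mm10), had the largest LPS ratio of the 10 in lung and in spleen of every genotype. With LPS its authors' mean in lung was 1460 in mutant, 1250 in knockout and 1690 in wild type mice, against 47.4 in mutant, 53.7 in knockout and 41.3 in wild type mice with PBS. The LPS means were thus 30.2-fold higher in mutant, 22.9-fold in knockout and 40.0-fold in wild type lung. Only 0.359% of wild type lung entries had a ratio as high or higher, and 0.868% and 1.17% of mutant and knockout lung entries. In spleen the level was several times lower in normalized counts, although the tissues were scaled separately: 262 in mutant, 340 in knockout and 257 in wild type mice with LPS, and 16.8 in mutant, 13.0 in knockout and 19.5 in wild type mice with PBS. The spleen ratios were 14.8-fold in mutant, 24.4-fold in knockout and 12.6-fold in wild type mice. The order of the genotypes thus differed between the tissues, with knockout lowest in lung and highest in spleen; this difference was not tested. Neutrophil markers and some macrophage markers were higher in the same lungs. The 6 measured macrophage markers, of which 2 were 2-fold higher in mutant, 2 in knockout and 3 in wild type, summed to 10161 in mutant, 9023 in knockout and 8170 in wild type mice with LPS, against 2507, 2405 and 2766 in mutant, knockout and wild type mice with PBS. Most of the LPS sums came from Cd14, a coreceptor for LPS, at 7400 in mutant, 6880 in knockout and 5620 in wild type lung. Mertk, an uptake receptor of macrophages, was 2-fold lower in mutant and knockout lung, and Csf1r, their growth factor receptor, was at -0.24 in mutant, -0.69 in knockout and -0.32 in wild type lung (log2 LPS ratio). The sum of 7 neutrophil markers, each 2-fold higher in all 3 genotypes, was 16105 in mutant, 17587 in knockout and 14090 in wild type lung with LPS, and 1843 in mutant, 1567 in knockout and 1820 in wild type lung with PBS. None of these markers was at 0, and their part in the Nos2 level was not tested.

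Gch1 (chromosome 14, 47153895 to 47189413), whose product GTP cyclohydrolase starts the synthesis of tetrahydrobiopterin, followed in the same direction with a smaller ratio. Its authors' mean in lung was 777 in mutant, 626 in knockout and 665 in wild type mice with LPS, and 120 in mutant, 126 in knockout and 136 in wild type mice with PBS. The ratios were 6.43-fold in mutant, 4.94-fold in knockout and 4.86-fold in wild type lung. In spleen they were 3.21-fold in mutant, 3.16-fold in knockout and 2.26-fold in wild type mice. With LPS the spleen means lay within a narrow range, 255 in mutant, 236 in knockout and 236 in wild type mice, while with PBS they were 78.7 in mutant, 74.1 in knockout and 104 in wild type mice. The PBS level was thus highest in the genotype with the smallest ratio. The other enzymes of the cofactor were not higher. Of 8 listed genes of tetrahydrobiopterin synthesis and recycling, 7 passed the minimum mean in lung and none of these was 2-fold higher or lower in any genotype, with a median log2 ratio of -0.48 in wild type; in knockout spleen 3 of 6 were 2-fold lower. Spr, sepiapterin reductase, which completes the cofactor, was at -0.96 and Qdpr, which regenerates it, at -0.83 in wild type lung, on the log2 scale; Pcbd2, a recycling dehydratase, was at -0.85. In wild type spleen Pts, the second enzyme of the route, stood at -0.67 and Spr at -0.39.

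Both cationic amino acid transporters were higher with LPS in every genotype and tissue. Slc7a1 (chromosome 5, 148327410 to 148399904), the widely expressed arginine carrier, had authors' means in lung of 1090 in mutant, 1070 in knockout and 1000 in wild type mice with LPS, against 182 in mutant, 199 in knockout and 173 in wild type mice with PBS. Its ratio was 5.96-fold in mutant, 5.36-fold in knockout and 5.75-fold in wild type lung. In spleen the LPS means were 866 in mutant, 1470 in knockout and 1080 in wild type mice, against 239 in mutant, 228 in knockout and 255 in wild type mice with PBS. Slc7a2 (chromosome 8, 40862396 to 40922308), the carrier that mouse macrophages induce together with Nos2, varied more between genotypes. With LPS its lung means were 1890 in mutant, 1460 in knockout and 1120 in wild type mice, and with PBS 381 in mutant, 349 in knockout and 411 in wild type mice. Ratios in lung were accordingly 4.95-fold in mutant, 4.17-fold in knockout and 2.72-fold in wild type mice. In spleen they were 2.84-fold in mutant, 4.57-fold in knockout and 2.36-fold in wild type mice. Per kb of merged exons, Slc7a2 was 2.19 times Slc7a1 in mutant, 1.72 times in knockout and 1.41 times in wild type lung with LPS, compared with 2.64, 2.21 and 3.00 times in mutant, knockout and wild type lung with PBS. The balance thus lay closer to Slc7a1 under LPS in lungs of all 3 genotypes.

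Ass1 and Asl, which rebuild arginine from citrulline in consecutive steps, parted under LPS except in wild type spleen. Ass1 (chromosome 2, 31470207 to 31520672), argininosuccinate synthetase, had lung means of 556 in mutant, 695 in knockout and 669 in wild type mice with LPS, against 223 in mutant, 260 in knockout and 299 in wild type mice with PBS. That is 2.49-fold in mutant, 2.67-fold in knockout and 2.23-fold in wild type lung. Asl (chromosome 5, 130011258 to 130029247), argininosuccinate lyase, stayed within 2-fold in every genotype and tissue, with LPS means in lung of 136 in mutant, 134 in knockout and 111 in wild type mice and PBS means of 124 in mutant, 117 in knockout and 171 in wild type mice. Per kb, Ass1 exceeded Asl 8.18-fold in mutant, 10.4-fold in knockout and 12.1-fold in wild type lung with LPS, and 3.60-fold, 4.45-fold and 3.50-fold in mutant, knockout and wild type lung with PBS. In spleen this excess was 7.27-fold in mutant, 12.9-fold in knockout and 8.65-fold in wild type mice with LPS. With PBS it was 4.82-fold, 5.06-fold and 8.02-fold in mutant, knockout and wild type spleen. In spleen Ass1 was 2.03-fold higher with LPS in mutant, 2.05-fold in knockout and 1.16-fold in wild type mice. Its LPS means there were alike, 330 in mutant, 341 in knockout and 305 in wild type mice, whereas the PBS means were 162 in mutant, 166 in knockout and 263 in wild type mice. The wild type PBS spleens also carried the highest PBS sum of hepatocyte markers, given with Arg1. With LPS those sums were 3597 in mutant, 5249.5 in knockout and 408 in wild type spleen, where the Ass1 means were alike. The part of those cells in the Ass1 level was not tested.

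**Figure D2:**
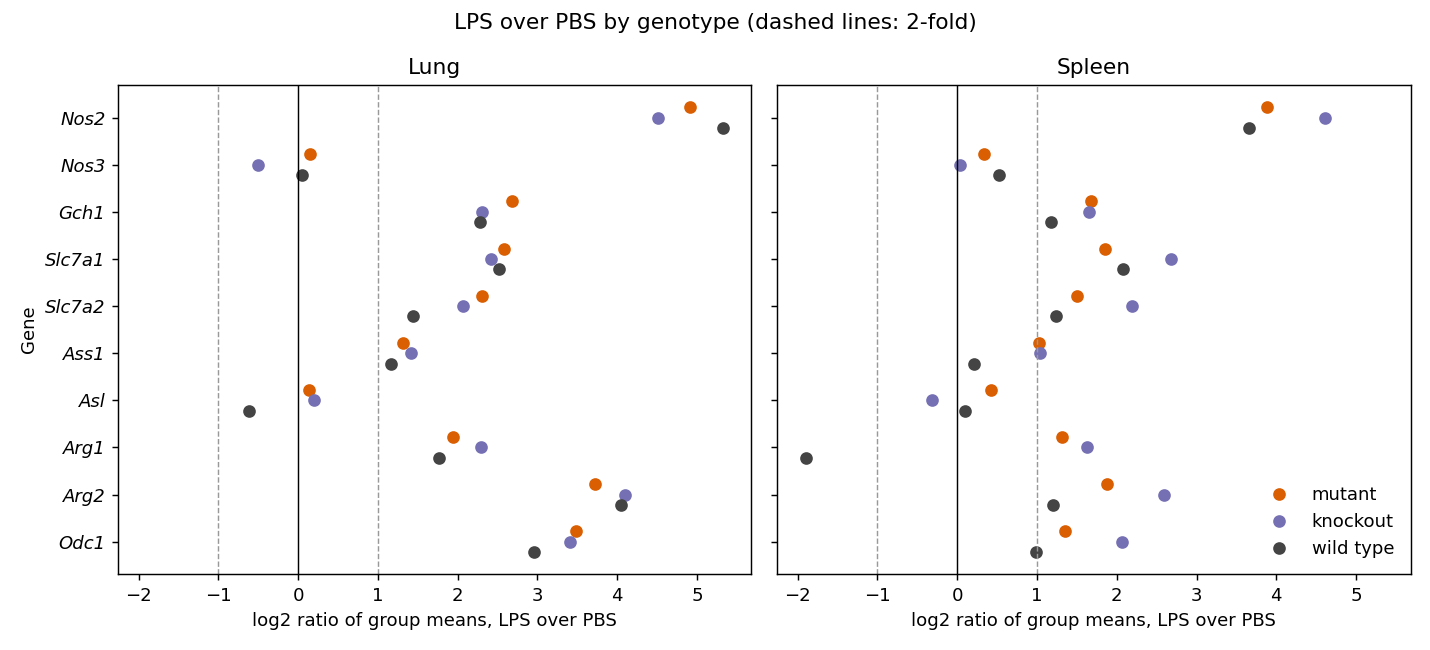
Log2 ratio of group means, LPS over PBS, for each gene by genotype in lung and spleen; dashed lines mark 2-fold. Nos2 lies farthest right in both tissues, Nos3 and Asl lie between the dashed lines, and Arg1 in wild type spleen is the single point left of the lower dashed line, at -1.89.

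Of the arginases, Arg2 carried most of the signal. Arg2 (chromosome 12, 79130777 to 79156301), the mitochondrial isoform, had lung means of 1020 in mutant, 800 in knockout and 801 in wild type mice with LPS, against 76.4 in mutant, 45.6 in knockout and 47.4 in wild type mice with PBS. Its LPS ratio in lung, 13.2-fold in mutant, 17.2-fold in knockout and 16.6-fold in wild type mice, came next after that of Nos2. In spleen Arg2 was far lower, at 51.3 in mutant, 67.7 in knockout and 49.0 in wild type mice with LPS, and 13.2 in mutant, 10.4 in knockout and 20.8 in wild type mice with PBS. Per kb, Arg2 exceeded Arg1 in each of the 12 groups. The excess in lung was 29.3-fold in mutant, 17.1-fold in knockout and 26.8-fold in wild type mice with LPS, and 8.90-fold in mutant, 5.05-fold in knockout and 5.69-fold in wild type mice with PBS. In spleen it was 2.62-fold in mutant, 2.79-fold in knockout and 15.0-fold in wild type mice with LPS, and 1.76-fold, 1.4-fold and 1.5-fold in mutant, knockout and wild type mice with PBS.

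Arg1 (chromosome 10, 24915221 to 24927484), the cytosolic arginase, was the 1 member whose LPS ratio pointed in opposite directions between genotypes by more than 2-fold each way. In lung it was higher with LPS in all 3: 54.3 in mutant, 73.0 in knockout and 46.6 in wild type mice, against 13.4 in mutant, 14.1 in knockout and 13.0 in wild type mice with PBS. In spleen the LPS means were 30.6 in mutant and 37.8 in knockout mice but 5.08 in wild type mice, and the PBS means were 11.7 in mutant, 11.6 in knockout and 21.6 in wild type mice. Arg1 in spleen was thus 2.49-fold higher with LPS in mutant and 3.08-fold higher in knockout mice, and 3.72-fold lower in wild type mice, where 14.8% of all entries were 2-fold lower. The wild type LPS mean rests on few reads: its 95% counting interval runs from 2.51 to 9.15, against 21.2 to 42.7 in mutant and 31.3 to 45.2 in knockout spleens with LPS. These intervals cover counting error only, and leave out the spread between animals. The log2 responses differed by 3.21 between mutant and wild type and by 3.52 between knockout and wild type, without a test, and both differences share the wild type groups. In the authors' deposited table Arg1 was not called in spleen under LPS: mutant over wild type stood at 1.48 (log2; adjusted p = 1) and knockout over wild type at 1.68 (log2; adjusted p = 0.559). Those folds are smaller than the log2 ratios of the group means, 2.38 for mutant and 2.67 for knockout over wild type.

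Hepatocyte markers and Arg1 were highest in the same spleen groups. The 10 markers, all measured, summed to 3597 in mutant, 5249.5 in knockout and 408 in wild type spleen with LPS, and to 57.2 in mutant, 275 in knockout and 2213 in wild type spleen with PBS. The knockout LPS, mutant LPS and wild type PBS groups, in that order, had the highest hepatocyte sums and, in the same order, the highest Arg1 means of the 6 spleen groups. The remaining groups ran in the opposite order. Wild type LPS had a sum of 408 with Arg1 at 5.08, knockout PBS 275 with 11.6 and mutant PBS 57.2 with 11.7. The mutant PBS spleens had an Arg1 mean of 11.7 where the urea cycle enzyme Cps1 was listed at 0 and albumin (Alb) had a mean of 8.27; in the other spleen groups no hepatocyte marker was at 0. In lung the sums were 1210 in mutant, 5084 in knockout and 709 in wild type mice with LPS, and 288 in mutant, 465 in knockout and 825 in wild type mice with PBS, so that wild type lungs had a lower sum with LPS but a higher Arg1 mean. The part of hepatocyte RNA in the spleen values was not tested. Of the 12 listed genes of the interleukin 4 pathway and of Arg1-positive macrophages that were measured in spleen, 10 passed the minimum mean in wild type, with 2 at least 2-fold higher and 4 at least 2-fold lower. Pparg, a nuclear receptor of alternatively activated macrophages, stood at -3.46 and Mrc1, the mannose receptor, at -1.35 in wild type spleen, while Cebpb, a transcription factor that acts on Arg1, stood at 1.97, all as log2 LPS ratios. The directions of Pparg, Mrc1 and Cebpb were shared by mutant and knockout spleens, where Arg1 was higher with LPS. There Pparg was at -2.01 and -2.45, Mrc1 at -0.62 and -0.97 and Cebpb at 2.87 and 2.62, in mutant and knockout respectively. Other listed genes changed sign between genotypes. Il13ra1, a receptor subunit, was at -0.04 in wild type, 0.82 in mutant and 1.47 in knockout spleen. The listed Stat6 was at 0.14 in wild type, -0.09 in mutant and 0.21 in knockout spleen. The part of these genes in the Arg1 level was not tested. Of 10 listed genes past the minimum mean, 2 were 2-fold higher and 2 lower in mutant spleen, and 3 higher and 2 lower in knockout spleen. In wild type lung 5 of 10 were 2-fold higher and 2 lower, led by the receptor subunits Il4ra at 2.80 and Il13ra1 at 2.09 and by Cebpb at 2.16; the cytokine Il4 itself did not exceed 1.35 in the lung groups.

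**Figure D3:**
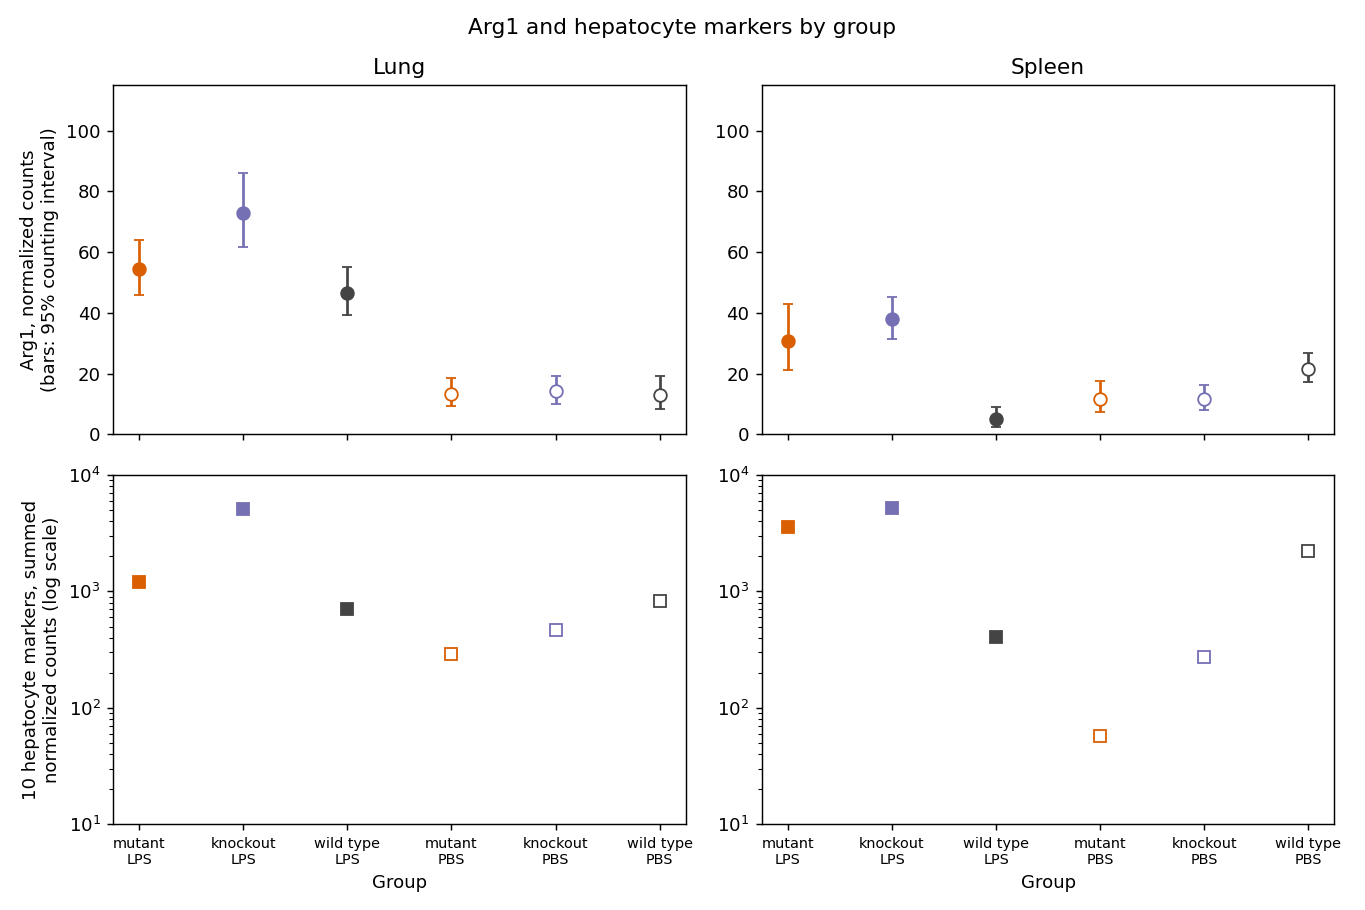
Top, authors' group means of Arg1 (normalized counts) with 95% counting intervals as bars; bottom, summed group means of 10 hepatocyte markers (log axis), by group in lung and spleen. In spleen the wild type LPS group is lowest for Arg1, at 5.08, and the knockout LPS group is highest in both panels.

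Odc1 (chromosome 12, 17544794 to 17551505), ornithine decarboxylase, which commits ornithine to polyamines, was the most abundant of the 10 in both tissues per kb. In lung its authors' mean was 9330 in mutant, 8720 in knockout and 7310 in wild type mice with LPS, against 835 in mutant, 821 in knockout and 944 in wild type mice with PBS. The ratios were 11.2-fold in mutant, 10.6-fold in knockout and 7.74-fold in wild type lung. In spleen Odc1 means were 2860 in mutant, 4280 in knockout and 2450 in wild type mice with LPS, and 1120 in mutant, 1020 in knockout and 1240 in wild type mice with PBS. The spleen ratios of 2.55-fold in mutant and 4.19-fold in knockout lay above that of 1.98-fold in wild type mice, which fell just short of the 2-fold limit. Knockout and wild type spleens differed in the log2 response by 1.09 for Odc1 and by 1.39 for Arg2, without a test. The further polyamine genes were less uniform: of 12 past the minimum mean in wild type lung, 3 were 2-fold higher and none lower. These were Smox, spermine oxidase, at 2.23, Srm, spermidine synthase, at 1.38 and Azin1, which frees ornithine decarboxylase from antizyme, at 1.17 (log2). In wild type spleen Srm stood at 2.07, Sat1, the acetyltransferase of polyamine breakdown, at -0.93 and Paox, an oxidase of acetylated polyamines, at -1.03.

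Nos3 (chromosome 5, 24364810 to 24384474), the endothelial nitric oxide synthase, did not follow Nos2. Its lung means were 242 in mutant, 193 in knockout and 242 in wild type mice with LPS, and 219 in mutant, 273 in knockout and 234 in wild type mice with PBS. The spleen means lay between 53.2 and 73.3 with LPS and between 50.5 and 51.9 with PBS. Every LPS ratio of Nos3 was thus within 2-fold, in lung -0.50 on the log2 scale in knockout and 0.05 in wild type mice. Most endothelial markers were lower in the same lungs: 5 of 8 were at least 2-fold lower with LPS in mutant, 6 of 8 in knockout and 5 of 8 in wild type mice. Others were higher, among them Cdh5, the cadherin of endothelial junctions, 1.72-fold in mutant, 1.36-fold in knockout and 1.93-fold in wild type lung, and Cldn5, a tight junction protein, 2.01-fold in knockout lung. Per kb, Nos2 exceeded Nos3 5.65-fold in mutant, 6.07-fold in knockout and 6.54-fold in wild type lung with LPS. With PBS the order was the other way round, with Nos3 4.93-fold above Nos2 in mutant, 5.43-fold in knockout and 6.05-fold in wild type lung.

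Several partners of the synthases in lung, and several nitric oxide targets in both tissues, were lower with LPS. Of 7 synthase partners and methylarginine genes past the minimum mean in wild type lung, 3 were 2-fold lower and none higher, and in mutant and knockout lung 3 were lower and 1 higher. Ddah2, which clears the inhibitor dimethylarginine, was at -2.48, Cav1, the caveolar protein that holds Nos3 inactive, at -1.84 and Nostrin, a trafficking factor of Nos3, at -1.20 (log2). Of 7 such genes in spleen, 1 was 2-fold higher and 1 lower in wild type mice. In mutant spleen 2 were higher and 1 lower, and in knockout spleen 3 were higher and 1 lower. Cav1 was at -1.99 in wild type, -0.65 in mutant and -0.07 in knockout spleen. In wild type spleen Prmt1, a methyltransferase that makes methylated arginine, was at 1.29 and Hsp90aa1, a chaperone of the synthases, at 0.75. The neuronal synthase Nos1 stood at 8.69 in knockout lungs with PBS, and nowhere above 0.67 in the other lung groups. The 5 skeletal muscle markers summed to 3179 in those knockout lungs, against 187 in wild type lungs with PBS. The sum was 885 in knockout lungs with LPS, where Nos1 was at 0.665, and 11.9 in knockout spleens with PBS, where Nos1 was at 6.96. In the nitric oxide signalling list 5 of 8 genes were 2-fold lower and 1 higher in wild type lung, and 5 of 7 were lower in wild type spleen. Pde5a, which degrades cyclic GMP, was at -2.21, Prkg2, a cyclic GMP-dependent kinase, at -1.62 and Gucy1a3, a subunit of the nitric oxide receptor guanylate cyclase, at -1.53 in lung. In spleen the receptor subunits Gucy1a3, Gucy1a2 and Gucy1b3 stood at -3.50, -2.49 and -2.36.

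Other carriers and the ornithine branches gave mixed changes. Of 9 arginine transport and urea cycle genes past the minimum in wild type lung, 2 were 2-fold higher and 1 lower. Slc7a6, an arginine exchanger, was at 1.96, Slc6a14, a broad amino acid importer, at 1.04 and Otc, a liver urea cycle enzyme, at -2.19. The Otc value rests on low wild type means, 2.16 with LPS and 13.4 with PBS. In mutant lung Otc was at -0.79 and in knockout lung at 1.38. In wild type spleen Slc7a3, a further cationic amino acid carrier, was at 3.55 and Slc3a2, the heavy chain partner of the exchangers, at 1.39. Cps1, itself among the hepatocyte markers summed above, was at -2.60 there. Cps1 went the other way in mutant spleen, at 5.55, and in knockout spleen, at 3.46. Of 10 genes of the ornithine, proline and creatine branches in wild type lung, 2 were 2-fold higher and 1 lower, with Glul, glutamine synthetase, at 1.56, Aldh18a1, which opens proline synthesis, at 1.27 and Gamt, the last enzyme of creatine synthesis, at -2.86. In wild type spleen Pycr1, which completes proline, was at 2.24, Aldh18a1 at 0.93 and Oat, ornithine aminotransferase, at -1.18. Known inducers and transcription factors of Nos2 were mostly higher: 9 of 12 were 2-fold higher in wild type lung, and 6 of 12 in wild type spleen with 1 lower. Ifng, interferon gamma, led in lung at 6.66, followed by Tnf at 5.39 and Il1b at 4.65, and in spleen Ifng was at 7.05, Il1b at 1.89 and Hif1a, the hypoxia-inducible factor, at 1.81. In spleen with LPS the authors' mean of Ifng was 1380 in mutant, 4690 in knockout and 1700 in wild type mice. The authors' deposited table calls no gene of the inducer list there. The smallest adjusted p of the list was 0.588 in knockout over wild type and 0.188 in knockout over mutant. As medians of the log2 LPS ratio in wild type lung, the inducers stood at 1.78, the interleukin 4 list at 0.73, the arginine carriers and urea cycle at 0.15, the ornithine branches at 0.08, the polyamine genes at 0.02, the synthase partners at -0.38 and the signalling genes at -1.21. In wild type spleen these medians were 1.22 for the inducers, 0.05 for the interleukin 4 list, 0.96 for the carriers and urea cycle, 0.15 for the ornithine branches, 0.13 for the polyamine genes, 0.10 for the synthase partners and -1.67 for the signalling genes. Among these lists the signalling genes were thus lowest and the inducers highest in both wild type tissues. This order did not hold in every genotype. In mutant spleen the carriers and urea cycle, at 1.23, lay above the inducers, at 1.11. In knockout spleen the tetrahydrobiopterin list, at -0.76, lay below the signalling genes, at -0.65.

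The genotype comparisons ask whether these genes differ in either lincRNA-Cox2 line; the Ptgs2 and sex-linked differences given above run alongside them, and their part was not tested. No member was called at an adjusted p under 0.05 in any of the 12 comparisons of the authors' deposited table, made with DESeq2 per the submitters' processing notes, nor at the authors' own limit of 0.1; unadjusted p-values were not used here. Of 120 member folds 113 had an adjusted p, the smallest being 0.638 in lung, for Arg1 in knockout over wild type under LPS, and 0.544 in spleen, for Slc7a1 in knockout over mutant under LPS. Calls were few over all entries with an adjusted p too: under LPS in lung 0.0715% in mutant over wild type, 0.441% in knockout over wild type and 0.243% in knockout over mutant, and in spleen 0.00545%, 0.0241% and 0.177% in the same comparisons. Under PBS they were 0.00524%, 0.0421% and 0.0523% in mutant over wild type, knockout over wild type and knockout over mutant lung, and 0%, 0.16% and 0% in spleen. A count of 0 among 10 genes is close to that background, and does not show that the genotypes act alike.

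Folds of the members stayed small in lung, between -0.70 and 0.72 (log2) over the 6 lung comparisons of the authors' deposited table. The upper end was Slc7a2 in mutant over wild type under LPS, adjusted p = 0.972, and the lower end was Arg2 in knockout over mutant under PBS, adjusted p = 1. Nos2 stood at -0.18 in mutant and -0.38 in knockout over wild type lung under LPS, with adjusted p-values of 0.993 and 0.888, in the same deposited table of the authors. In knockout over wild type spleen under LPS 7 of 10 members were above 0, with a median of 0.37 against -0.04 over all entries with an adjusted p. Besides Arg1 the larger values there were Odc1 at 0.75, Slc7a2 at 0.52 and Slc7a1 at 0.41, and the authors' deposited table gives them adjusted p = 0.614, 0.766 and 0.790. Under PBS, spleen folds mostly lay below 0, in 8 of 10 members for mutant and 9 of 10 for knockout over wild type, with medians of -0.21 and -0.33 against 0.00 and -0.01 over the entries with an adjusted p, which number only 3124 in the knockout comparison. Both comparisons share the wild type PBS spleens, and only 3 of the 10 had an adjusted p in the knockout comparison. In the authors' deposited table Arg2 was lowest in knockout, at -0.78 without an adjusted p, and Ass1 in mutant, at -0.61 (adjusted p = 1).

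**Figure D4:**
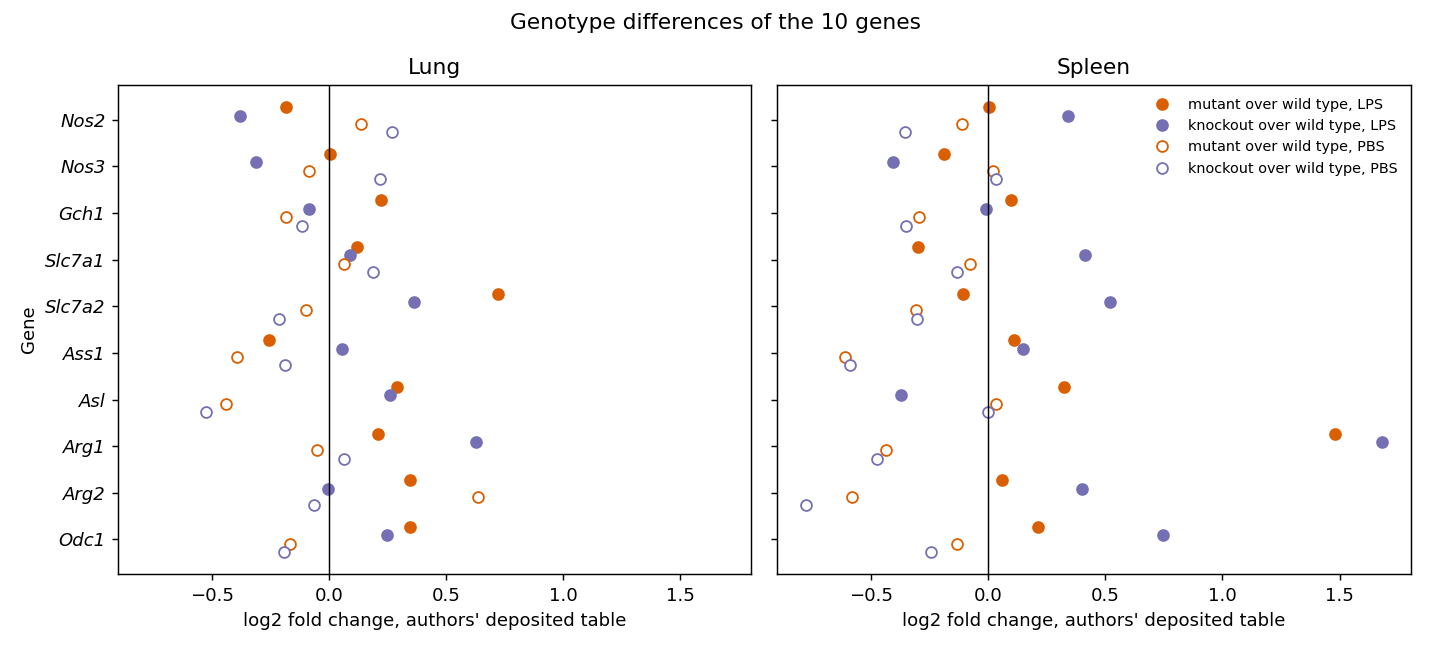
Log2 fold changes of the authors' deposited table for mutant and knockout over wild type, filled for LPS and open for PBS, by gene in lung and spleen. None was called; in spleen Arg1 under LPS stands apart at 1.48 in mutant and 1.68 in knockout.

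In the wider pathway lists, 84 of 88 genes were measured in lung and 83 in spleen, and over all 12 comparisons a single call was made. Oat, which exchanges ornithine with glutamate semialdehyde, fell in knockout over wild type lung under LPS, with a fold of -0.53 on the log2 scale (adjusted p = 0.0339, the authors' deposited table), a comparison in which 0.441% of entries with an adjusted p were called. Its authors' mean was 1405 in knockout and 2040 in wild type lungs with LPS, and 1320 in knockout and 1374 in wild type lungs with PBS. The mutant lungs lay between, at 1643 with LPS.

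Entries with the most similar pattern were found by the root mean square difference of log2 means, centred within each tissue, over the 12 groups and 12521 other symbols. Nearest to Nos2 were Tnfaip3, a brake on NF-kB signalling, at 0.20, Socs3, an inhibitor of cytokine receptors, at 0.25, and an entry listed as mmu-mir-155*, at 0.29. In lung the authors' mean of Tnfaip3 was 8880 in mutant, 6220 in knockout and 7330 in wild type mice with LPS, against 260 in mutant, 262 in knockout and 215 in wild type mice with PBS. Gch1 had closer neighbours, among them Samhd1, a nucleotide hydrolase, at 0.08, and Gm6548 at 0.14. For Arg1 the nearest entries were farther off, Slc38a4, a neutral amino acid carrier prominent in liver, at 0.42, Pigr, the carrier of polymeric antibodies, at 0.45, and P2ry13, a receptor for ADP, at 0.47. Slc38a4 had authors' means in spleen of 17.3 in mutant, 24.3 in knockout and 1.65 in wild type mice with LPS, and 3.68 in mutant, 8.34 in knockout and 21.7 in wild type mice with PBS. Its likeness to Arg1 is built in, since it was picked on these same group means. Nos3 lay nearest to Dvl1 at 0.09, Gpr89 at 0.12 and Prpf4b at 0.12, all with little difference between LPS and PBS.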

How the data were processed

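RNA enriched with mRNA kits, per the labels' protocols, was sequenced from 30 lung and spleen libraries. STAR 2.5.3a, Bowtie2, SAMtools, bedtools and DESeq2, with mm10, are named in the submitters' processing notes, without order or settings. Per the file headers, the authors' deposited tables give group means of normalized counts (a signal scaled for library size), log2 fold changes between genotypes, adjusted p-values and a score that marks calls. The authors averaged the replicates, so no value per library was used here.

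Broken lines were left out (6 in lung, 5 in spleen) and 1026 split spleen symbols rejoined. Python 3.11.15, pandas 2.3.3 and SciPy 1.17.1 were used. Log2 ratios of LPS to PBS carry a pseudocount of 1, and background shares use entries whose mean reaches 10 under LPS or PBS. Size factors were derived from the spacing of the lowest group means; they give depths and 95% Poisson intervals, by a step checked on simulated data. Levels per kb use merged GENCODE exons. Genes named from the 8 pathway lists are those called in any comparison and the 3 with the largest ratios in wild type lung or spleen. A few items that these rules name are not reported here. The members and lists were chosen with earlier results of these data known. Whether libraries come from different mice is not in the labels, so adjusted p-values may measure technical spread. A per-library edgeR fit, planned for counts, was not applicable, and counting is not stated to use strand.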

Additional observations from a re-analysis of the deposited data

How the results depend on the processing

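Member ratios and response differences kept their direction and their side of the 2-fold limit under pseudocounts of 0.5 and 5 and, for the ratios, centring on the median of all entries. The count of members 2-fold higher was 5 in wild type spleen and 8 in each other genotype and tissue under these settings and with a minimum mean of 10. Background shares without a filter on low values stayed within 1.5 times. At the limit of 0.1 the count of called members was 0 too. Of 60 member folds in each tissue, 58 had the same sign as the ratio of group means. No paired analysis was possible because the tables hold group means and the labels give no pairing, and leaving out single replicates was not run for the same reason. Low means limit precision most for Arg1 in wild type spleen with LPS, and the LPS-treated mutant spleens include a library of about 0.940 M reads.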
